A study of Canis lupus familiaris with 13 samples.

Results

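CDKN1A, MT2A, CLU, PTGR1, UPP1 and JUNB are genes that respond to cellular stress, and their messenger RNA was followed in dog heart tissue on a canine Affymetrix array. All probe sets annotated with 1 of these 6 symbols were taken, which gave 8 probe sets of the 23836 on the array and 6 of the 6540 genes named there. MT2A was measured by 3 probe sets and each of the other genes by 1, and all 8 passed the filter on low signal. The genes were chosen by their signals in the Dobermans: 5 of them were among the largest rises of Dobermans over controls, and which values put JUNB beside them is not given. Every difference that involves the Dobermans is therefore given as a description of these genes, without a test.

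The study compared 4 groups, with 1 array for each separately named sample. Control heart tissue came from 3 mongrels (P1, P4 and P9), diseased tissue from 3 Dobermans (K, L and R) and 4 Boxers (1 to 4) with dilated cardiomyopathy, a disease of enlarged and weakly contracting ventricles, and paced tissue from 3 mongrels (LV01, LV02 and LV04). Pacing drives the heart through an electrode. The labels give no pacing rate or duration, heart chamber, age, sex or drug treatment for any group. Healthy Dobermans or Boxers were not analysed here, so breed and disease cannot be told apart in any comparison of a breed with the mongrels. In whole tissue, fewer cells of a type and less RNA per cell cannot be told apart either.

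The 6 genes act at different points of the stress response. CDKN1A encodes p21, which blocks cyclin-dependent kinases and halts the cell cycle. JUNB is a subunit of the AP-1 transcription factor and an immediate early gene. MT2A is a metallothionein, a small cysteine-rich protein that binds zinc and other metals and is switched on by the zinc sensor MTF1, by glucocorticoids and by inflammatory signals. PTGR1 is an oxidoreductase that oxidises leukotriene B4, reduces oxo-prostaglandins, and is an NRF2 target. UPP1 splits uridine into uracil and ribose phosphate. CLU is clusterin, a secreted chaperone that binds misfolded proteins and restrains the terminal complement complex.

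The arrays differed in ways that bear on all of these values. The median signal was 142.5 to 146.25 in the controls, 132.15 to 145.7 in the Boxers, 207.55 to 219.3 in the paced samples and 160.3 to 234.35 in the Dobermans. The ratio of 3' to 5' GAPDH control probe sets, a sign of RNA degradation when high, was 1.08 for Doberman K, 2.10 for L, 3.62 for R and 0.967 to 1.09 elsewhere. The log2 ratio of 3' to 5' actin control probe sets was higher in every Boxer and Doberman than in every control. It was -3.17 to -2.34 in controls, -2.56 to -2.20 in paced samples and -1.97 to -1.56 in Boxers. Dobermans K, L and R had -1.90, -1.92 and -0.08. The median difference from controls over all tested probe sets was 0.19 on the log2 scale for Dobermans and 0.06 for paced samples, and became -0.25 and -0.45 when arrays were centred on their medians. For Boxers against paced samples it went from -0.07 to 0.51. Of 15 cardiomyocyte markers, 12 were on the array, none was at 0 on any array, and their median percentile within an array was 99.8 to 99.9. Summed signals of smooth muscle markers (7 of 11 on the array) were 43261 to 67140 in the Dobermans, 31736 to 38595 in the Boxers, 22218 to 33138 in the controls and 23361 to 28649 in the paced samples, with none at 0. The median percentile of these markers did not separate the groups in that way (83.6 to 94.9 in Dobermans, 85.9 to 92.6 in controls). Summed cardiomyocyte markers of Dobermans K, L and R were 247879, 508224 and 457994, against 224675 to 328146 in controls. Every Doberman lay above every control in summed lymphocyte markers (6 of 11 on the array; 1315 to 2834 against 905.9 to 1301) and below in adipocyte markers (3 of 6 on the array; 711.3 to 2160 against 2388 to 7393). Median percentiles of both lists overlapped between Dobermans and controls. They were 44.98 to 59.53 against 43.9 to 53.68 for lymphocyte markers and 35.84 to 68.62 against 23.35 to 65.51 for adipocyte markers. Every paced sample also lay above every control in summed lymphocyte markers, at 1548.9 to 1823.8. The part of these features in the results below was not tested.

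CDKN1A, the p21 gene, had its highest signals in the Dobermans, followed on average by the Boxers, the paced samples and the controls. Dobermans K, L and R gave signals of 5143, 5671 and 3840, against 303.7, 397.7 and 916.1 in controls P1, P4 and P9. Boxers 1 to 4 had 1378, 1193, 1472 and 2569, and paced LV01, LV02 and LV04 had 1811, 1026 and 493.8. Every Doberman lay above all 10 other arrays, every Boxer lay above every control, and the paced samples overlapped with both controls and Boxers. Taken from the control mean of log2(signal + 16), Dobermans K, L and R had 10.4, 11.4 and 7.75 times the control level. Doberman K, with the lowest GAPDH ratio of the 3, was thus between L and R. On the scale of log2(signal + 16), used for every difference here, Boxers exceeded controls by 1.68 ± 0.42 (SE, n = 4 and 3), with an adjusted p of 0.306 in limma. Paced samples exceeded controls by 0.99 ± 0.45 (adjusted p = 0.167). Boxers and paced samples differed by 0.69 (95% interval -0.22 to 1.60).

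JUNB, the AP-1 subunit, was high in the Dobermans and overlapped among the other groups. Its signal was 2833, 2994 and 2683 in Dobermans K, L and R, the narrowest spread of any group for this gene, at 2837 ± 155 (SD, n = 3). Controls P1, P4 and P9 had 1485, 939.2 and 1005, and the paced samples 1455, 665.4 and 644.3. Boxers had 1303, 1066, 830.7 and 2569, so Boxer 4 came close to the lowest Doberman and the other Boxers lay among the mongrels. Boxers differed from controls by 0.23 ± 0.35 (adjusted p = 0.947), which became -0.09 without Boxer 4. Paced samples differed from controls by -0.38 ± 0.38 (adjusted p = 0.538). Boxers and paced samples differed by 0.61 (95% interval -0.15 to 1.37).

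**Figure D1:**
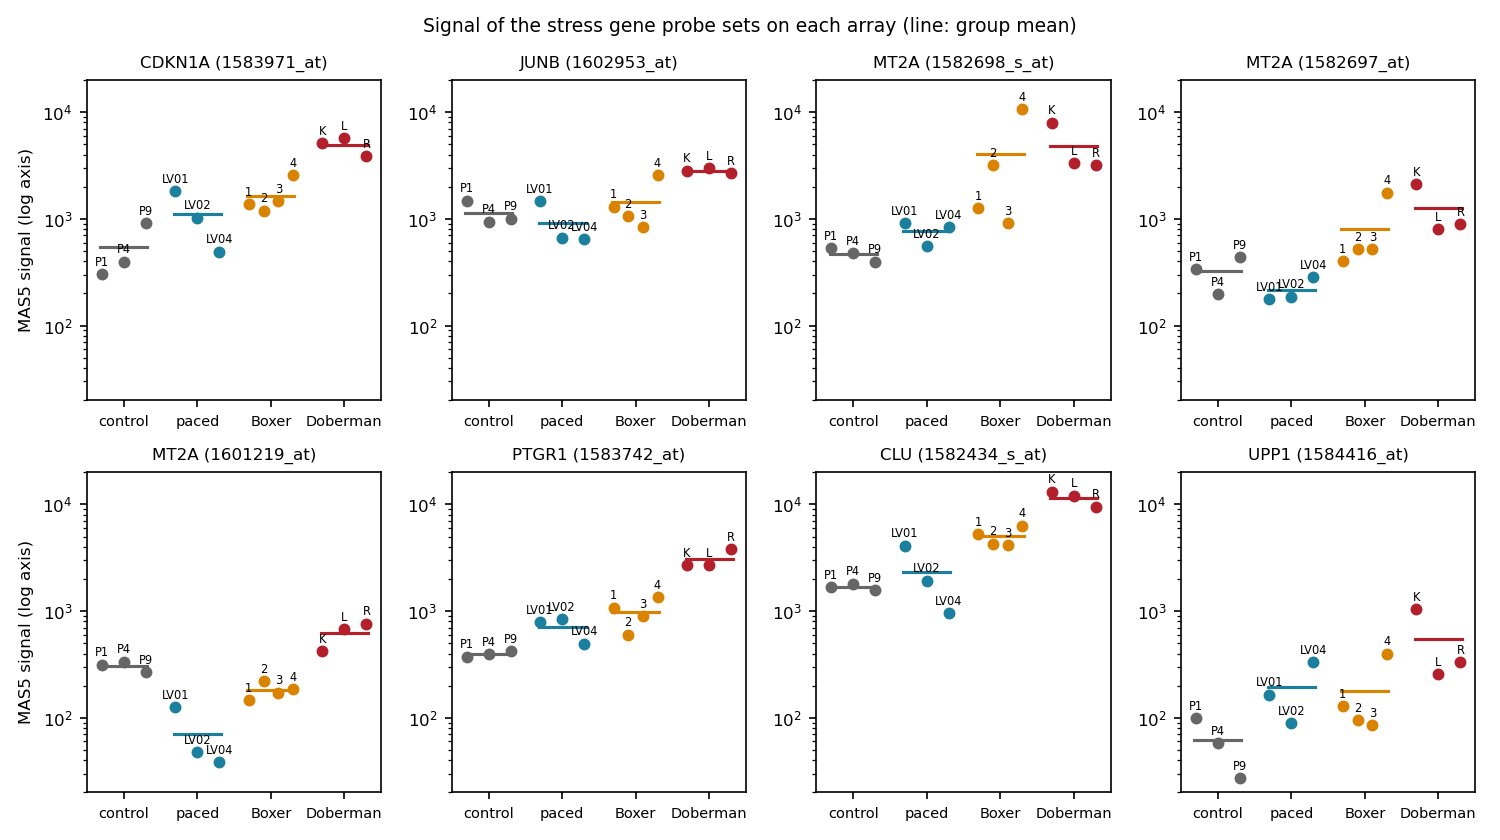
MAS5 signal of the 8 probe sets on a log axis, 1 point per array and a line at each group mean, for controls, paced mongrels, Boxers and Dobermans. Every Doberman lies above every control in all 8 panels, and Boxer 4 is the highest Boxer in 7.

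MT2A, the metallothionein, differed between groups in a way that depended on the probe set. On probe set 1582698_s_at the signal was 7954, 3317 and 3175 in Dobermans K, L and R, and 1251, 3192, 917.4 and 10734 in Boxers 1 to 4. Controls had 532.2, 474.4 and 396.4, and paced samples 912.2, 557.2 and 838.5. Every Doberman, Boxer and paced sample lay above every control, while Boxers and Dobermans overlapped, because Boxer 4 was the highest of all 13 arrays and Boxer 2 fell between Dobermans L and R. The highest Boxer was 11.7 times the lowest, against 1.34 times among the controls. Boxers exceeded controls by 2.40 ± 0.63 (adjusted p = 0.332) and paced samples by 1.72 ± 0.63 (adjusted p = 0.0739).

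The second MT2A probe set, 1582697_at, had a correlation of 0.88 with the first over the 13 arrays. It read 2108, 802.1 and 891.1 in the Dobermans, 399.1, 516.7, 522.2 and 1765 in the Boxers, 339.8, 195.6 and 436.7 in the controls and 176.4, 187.2 and 284.7 in the paced samples. Every Boxer lay above every paced sample, and the difference of 1.58 ± 0.47 passed (adjusted p = 0.0335). It did not pass without Boxer 4 (1.11, adjusted p = 0.0682), nor without Boxer 3 or any 1 of the 3 paced samples. Controls and Boxers overlapped, at a difference of 1.07 ± 0.47 (adjusted p = 0.655), and paced samples differed from controls by -0.51 ± 0.50 (adjusted p = 0.533).

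The third MT2A probe set, 1601219_at, lay below controls in every Boxer and paced sample. It read 421.6, 679.5 and 765.1 in the Dobermans, 314.2, 334.7 and 266.3 in the controls, 146, 219.2, 171.7 and 186.5 in the Boxers and 125, 47.4 and 38.4 in the paced samples. The 4 groups did not overlap. Paced samples fell by 2.02 ± 0.34 against controls on the log2 scale (adjusted p = 0.00340), and this passed in every alternative that tested it. LV02 and LV04 were dimmer than the filter level (108), and the added constant of 16 therefore bears on its size. Boxers lay 0.71 below controls (adjusted p = 0.667) and 1.31 ± 0.32 above paced samples (adjusted p = 0.0136). The latter did not pass without LV02 (adjusted p = 0.0576) or LV04 (adjusted p = 0.0716). Within each array, the log2 ratio of 1582698_s_at over 1601219_at exceeded that of controls by 3.11 in Boxers and 2.70 in paced samples. In Dobermans K, L and R this ratio was 4.19, 2.26 and 2.03, against 0.48 to 0.73 in controls, given as a description. Exact two-sided permutation tests gave p = 0.0571 for Boxers, where 0.0286 is the smallest possible, and p = 0.1 for paced samples, the smallest possible there. Over the 6 ratio tests of MT2A probe sets the adjusted p was 0.171 and 0.2. The direction of MT2A in Boxers and paced samples therefore depended on the probe set, while every Doberman lay above every control on all 3. The size of the Doberman rise over controls depended on the probe set too. It was 3.19 on 1582698_s_at, 1.84 on 1582697_at and 0.95 on 1601219_at.

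MT1E, a metallothionein on the same chromosome, has a sequence close to that of MT2A, and signal shared between such paralogs cannot be told apart on this array. Its probe set 1591698_s_at read 189.5 to 363.9 in controls, 310.3 to 1087 in Dobermans, 224.5 to 1538 in Boxers and 366.5 to 585.4 in paced samples, with Dobermans 1.41 ± 0.58 above controls (adjusted p = 0.0851), 0.49 above Boxers (adjusted p = 0.487) and 0.66 above paced samples (adjusted p = 0.426). On its probe set 1597493_at, Dobermans were 0.45 above controls (adjusted p = 0.144), 0.62 above Boxers (adjusted p = 0.0376) and 0.85 above paced samples (adjusted p = 0.0164).

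**Figure D2:**
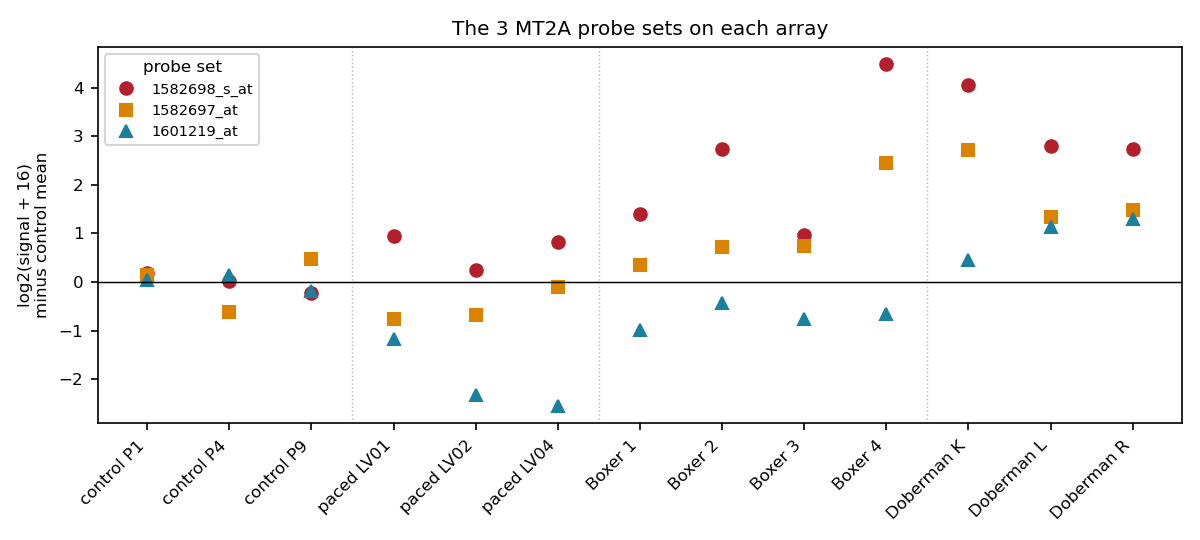
Log2(signal + 16) minus the control mean for the 3 MT2A probe sets on each of the 13 arrays. In all Boxers and paced samples probe set 1601219_at lies below the control mean and 1582698_s_at above it.

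PTGR1, the oxidoreductase of leukotrienes and prostaglandins, was high in every Doberman. Its signal was 2693, 2697 and 3814 in Dobermans K, L and R, and 373.9, 395.9 and 422.6 in the controls, which spanned only 1.13 times. Boxers had 1073, 600.5, 898.1 and 1349, and paced samples 784.3, 845.3 and 496.9. Every Doberman lay above all other arrays, at 6.56, 6.57 and 9.27 times the control mean, and every Boxer and paced sample lay above every control. Boxers exceeded controls by 1.21 ± 0.26 (adjusted p = 0.228) and paced samples did so by 0.78 ± 0.28 (adjusted p = 0.0856). Boxers and paced samples differed by 0.44 (95% interval -0.13 to 1.00).

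UPP1, the uridine phosphorylase, was above controls in every Doberman and varied widely within each group. It read 1044, 256.3 and 330.5 in Dobermans K, L and R, and 99.4, 58.1 and 27.1 in the controls, below the filter level, so that the size of a difference from controls depends on the added constant of 16. Boxers had 128.7, 94.6, 85.3 and 400, and paced samples 165.3, 89 and 331.1. Doberman K stood above all other arrays, whereas L lay below both Boxer 4 and LV04, and R below them too. Boxers differed from controls by 1.17 ± 0.59 (adjusted p = 0.707) and paced samples by 1.39 ± 0.63 (adjusted p = 0.164). The difference of Boxers from paced samples, -0.22 ± 0.59, had a 95% interval of -1.48 to 1.04 and changed sign with 1 sample left out or with the arrays rescaled.

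CLU, the secreted chaperone, was higher in the Boxers than in the paced samples. Its signal was 5228, 4293, 4174 and 6310 in Boxers 1 to 4, against 4109, 1926 and 950.8 in LV01, LV02 and LV04, and every Boxer lay above every paced sample. The difference was 1.32 ± 0.35 (adjusted p = 0.0204). It did not pass without Boxer 4 (1.20, adjusted p = 0.0562), LV02 (1.31, adjusted p = 0.0617) or LV04 (0.81, adjusted p = 0.0902), nor after quantile normalization (1.15, adjusted p = 0.0503). Dobermans K, L and R had 13150, 12089 and 9493, above all other arrays, and controls had 1681, 1810 and 1578. Boxers exceeded controls by 1.54 ± 0.35 (adjusted p = 0.284) with no overlap, and paced samples differed from controls by 0.22 ± 0.38 (adjusted p = 0.743), with LV01 and LV02 above and LV04 below every control. The latter difference was -0.31 without LV01 and -0.29 with arrays centred on their medians.

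Counted together, the 8 probe sets separated the groups as follows. Every Doberman lay above every control at 8 of 8 probe sets, above every paced sample at 7 and above every Boxer at 5, where 20.9%, 16.7% and 22.1% of all tested probe sets did so. Nothing is read from these counts, since Doberman signals chose the genes. Every Boxer lay above every control at 4 of 8 probe sets (6.32% of all) and below at 1 (9.38% of all), with a median difference of 1.19 against -0.03 over all probe sets. In limma 0 of 8 passed an adjusted p of 0.05, where 0.042% of all probe sets passed, and 6 had an unadjusted p under 0.05 (7.4% of all). These 6 were CDKN1A, PTGR1, CLU and every MT2A probe set, of which 1601219_at fell (-0.71) while the others rose. With array weights, 3 passed (1.78% of all), namely CDKN1A, PTGR1 and CLU. PTGR1 also passed without Dobermans L and R (adjusted p = 0.0484; 0.832% of all), and CLU in a fit of Boxers and controls alone (adjusted p = 0.00571; 0.175% of all). Every paced sample lay above every control at 2 of 8 (26.1% of all) and below at 1 (18% of all), and 1 of 8 passed, where 12.2% of all did. These comparisons share their controls with the one that chose the genes.

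The differences of Boxers from paced samples use neither Dobermans nor controls, although all 13 arrays set the spread and the filter behind their p-values. Every Boxer lay above every paced sample at 4 of 8 probe sets, the 3 of MT2A and that of CLU, where 16.4% of all probe sets did so. CLU and MT2A probe sets 1582697_at and 1601219_at passed, 3 of 8 against 17.7% of all. The median difference was 1.00 against -0.07 over all probe sets. The number that passed was 0 without LV02 or LV04, 1 without Boxer 4 and 7 with arrays centred on their medians (37.8% of all), where the median over all probe sets was 0.51. Summed fibroblast markers were higher in every Boxer than in every paced sample (24851 to 34577 against 16765 to 21187). The same held for macrophage (3385 to 9297 against 2671 to 3315) and endothelial markers (18723 to 20833 against 13553 to 17840). Lymphocyte and adipocyte sums were lower in every Boxer (786.8 to 1032 against 1549 to 1824, and 1928 to 2929 against 3782 to 8729). Median percentiles of all these lists overlapped, and their part in the differences was not tested.

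**Figure D3:**
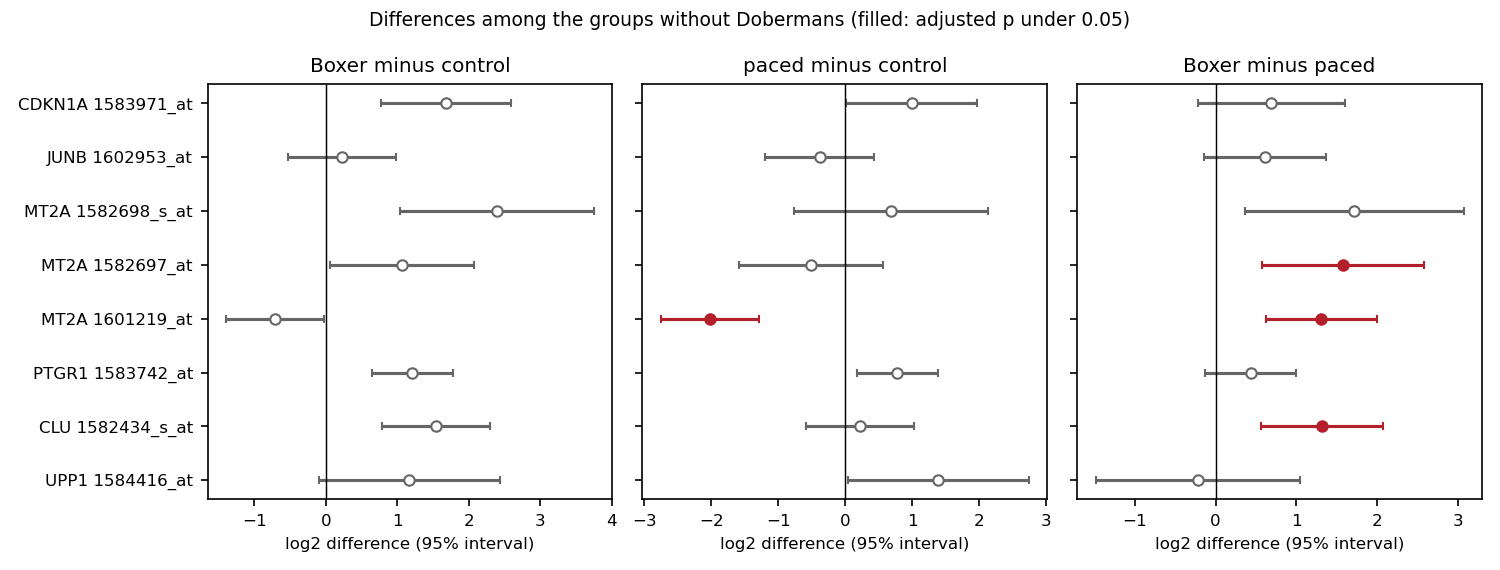
Difference in log2(signal + 16) with 95% intervals for the 8 probe sets in the 3 comparisons without Dobermans, with filled points for an adjusted p under 0.05. Filled are 0 probe sets for Boxers against controls, 1 for paced samples against controls and 3 for Boxers against paced samples.

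Boxer 4 had the highest Boxer signal at 7 of 8 probe sets, a feature noticed after the values were seen, where it was highest at 23.7% of all. Its gap to the next Boxer, as a share of the Boxers' range, stayed under Dixon's critical value at each of them and was largest for MT2A probe set 1582697_at, at 0.822. Its ratio to the mean of Boxers 1 to 3, on the log scale, was 6.89 and 3.62 for MT2A probe sets 1582698_s_at and 1582697_at, 3.54 for UPP1, 2.43 for JUNB, 1.90 for CDKN1A, 1.61 for PTGR1 and 1.39 for CLU. MT2A probe set 1601219_at did not share this, at 1.05. Without Boxer 4, every Doberman lay above every Boxer at 7 of 8 probe sets (24.5% of all). Nothing is read from this count, since Doberman signals chose the genes and Boxer 4 was singled out for its high values. The summed signal of macrophage markers (10 of 12 on the array) was 9297 in Boxer 4 and 3385 to 4621 in the other Boxers, and that of the 2 atrial markers measured was 19188 against 9448 to 13901. Its GAPDH ratio was 1.09. The part of these in its signals was not tested.

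The 6 genes were correlated across arrays, and less so within groups. Over the 13 arrays and with 1 probe set a gene, the correlation of log2 values ran from 0.61 to 0.93 over the 15 pairs, with a median of 0.77, as a description of groups chosen to differ. After the group means were subtracted the median was 0.49, and 14 of 15 pairs were above 0. The closest pairs within groups were MT2A with UPP1 (0.75) and CDKN1A with CLU (0.72). In both MT2A and UPP1, Boxer 4 and Doberman K were each the highest of their group, and the correlation without them was not computed. The loosest pairs were UPP1 with CDKN1A (-0.14), PTGR1 (0.02) and CLU (0.04), and MT2A with PTGR1 (0.11). The same figures over all gene pairs were not computed. The arrays share scaling and RNA quality, which enter both genes of a pair.

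Outside the 6, the genes whose pattern over the 13 arrays was most like MT2A were THBS1 (r = 0.91), an extracellular matrix protein, GLIPR2, CCL2, a chemokine that draws monocytes, CD14, a monocyte and macrophage receptor (each 0.89), and CYP1B1 (0.87). For UPP1 they were DSE (0.94), TIMP2 (0.89), an inhibitor of matrix proteases, ZCCHC12 (0.88), DKK2 (0.84) and CCN2 (0.83). CDKN1A was most like PTGR1 and CLU, followed by FAM184B (0.91), VPS45 (0.90) and CSTB (0.89), a cysteine protease inhibitor. CSTB was also among the 5 nearest to PTGR1 (0.91) and CLU (0.92), and GARNL3 (0.90 with each) was shared by these 2. JUNB was most like SCO1 (0.89), FAM20C and CHMP4C (0.87 each). After group means were subtracted, MT2A was nearest to CYP1B1 and CLPTM1L (0.93 each) and UPP1 to DSE (0.95).

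The pathways around these genes were described from 11 lists with 401 genes, of which 147 were tested, each by its probe set of highest mean signal. Between Dobermans and controls 11 of the 147 rose and 20 fell, where 11.9% and 14.1% of all genes did. With arrays centred on their medians 4 rose and 34 fell. In all, 9 passed without Dobermans L and R or without control P1, 14 to 16 without any other 1 Doberman or control except K, 58 without K, and 2 with the GAPDH ratio as a covariate. Of the 22 named genes that passed here, 4 also passed with K as the only Doberman, a fit in which that lone sample is assumed to vary like the other groups. They were CRIP1, AKR1B1, PTGDS and C2. The lists are described by their counts and medians, beside a median of 0.04 over all genes. Medians were 0.14 for NRF2 and glutathione, 0.22 for metallothionein and zinc, -0.04 for prostaglandin and leukotriene and -0.13 for cell cycle genes. They were 0.40 for IL6 and STAT3, 0.10 for glucocorticoid and -0.12 for unfolded protein and integrated stress genes. The other medians reported are given below.

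Around CDKN1A, 6 cell cycle genes were tested. CDKN2C, an inhibitor of CDK4 and CDK6, fell by 0.65 (adjusted p = 0.0430) and the others did not pass. Its call was lost in 16 of the 23 alternatives, among them those without any 1 control, Boxer, Doberman L or R, or LV04, and the difference was -0.43 in K alone.

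Around JUNB, 1 of 11 AP-1 and immediate early genes rose, with a median of 0.73. It was IER2, a growth-factor-induced regulator, at 1.26 ± 0.34 (adjusted p = 0.0209). This call was lost without any 1 control or Doberman R and with median centring, in 9 of the 23 alternatives in all, while the difference was 1.73 in K alone. FOS, the usual AP-1 partner, had 1.15 ± 0.84 (adjusted p = 0.305). Around MT2A, 2 of 9 metallothionein and zinc genes rose: CRIP1, a zinc-binding LIM protein, by 1.96 ± 0.31 (adjusted p = 0.00406) and SLC39A10, a zinc importer, by 0.69 ± 0.18 (adjusted p = 0.0181). In K alone CRIP1 lay 1.14 and SLC39A10 0.49 above controls. The call of CRIP1 was lost in 2 of the 23 alternatives and that of SLC39A10 in 6. The latter were among others those without control P1 or Doberman L and with median centring. MTF1 had 0.33 ± 0.21 (adjusted p = 0.245).

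Around PTGR1, 5 of 25 NRF2 and glutathione genes rose and 3 fell. GSS, glutathione synthetase, rose by 1.28 ± 0.24 (adjusted p = 0.00689), while its other probe set gave 0.55 (adjusted p = 0.290) and K alone 0.90 (adjusted p = 0.122). NQO1, a classic NRF2 target, had 0.56 ± 0.42 (adjusted p = 0.320). GPX3, a secreted glutathione peroxidase, rose by 2.25 ± 0.54 (adjusted p = 0.0147) on its brightest probe set, while its other probe sets gave -0.94, -1.01 and 2.45. AKR1B1, aldose reductase, fell by 1.80 ± 0.19 (adjusted p = 0.00116), with 2912 ± 74.4 (SD, n = 3) in Dobermans against 10216 ± 1518 (SD, n = 3) in controls, and it passed in every alternative. SOD2, the mitochondrial superoxide dismutase, fell by 2.01 ± 0.64 (adjusted p = 0.0364) with all Dobermans and was 0.26 above controls in K alone. Of 12 prostaglandin and leukotriene genes, 1 rose and 2 fell. DPEP1, a dipeptidase that cleaves leukotriene D4, rose by 0.73 (adjusted p = 0.0435). That call was lost in 18 of the 23 alternatives, among them those without any 1 control, Boxer, Doberman L or R, LV02 or LV04, and the difference was 0.30 in K alone. PTGDS, prostaglandin D2 synthase, fell by 2.67 ± 0.49 (adjusted p = 0.00659). ZADH2, a prostaglandin reductase like PTGR1, fell by 1.23 ± 0.21 (adjusted p = 0.00538).

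Around UPP1, 0 of 15 nucleotide salvage and synthesis genes rose and 3 fell, with a median of -0.50. Thymidylate synthase, TYMS, fell by 0.91 ± 0.24 (adjusted p = 0.0184) and ADSL, of purine synthesis, by 0.91 ± 0.18 (adjusted p = 0.00890). Around CLU, 19 complement and extracellular chaperone genes had a median of 0.64, and 1 rose and 1 fell. C2 of the classical complement pathway rose by 1.84 ± 0.40 (adjusted p = 0.0105), VLDLR, a lipoprotein receptor, fell by 1.40 ± 0.31 (adjusted p = 0.0118), and C3 had 0.82 ± 0.47 (adjusted p = 0.194). In K alone the median of the complement list was 0.80, against 0.17 over all lists. Summed macrophage markers were 7938, 5623 and 2446 in Dobermans K, L and R, against 2242 to 4212 in controls. Their part in the complement values was not tested.

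Of 3 lists of upstream signals, 0 of 9 IL6 and STAT3 genes rose and 1 fell, and 0 of 16 glucocorticoid targets rose and 2 fell. IL6ST, the shared receptor subunit gp130, fell by 1.63 ± 0.53 (adjusted p = 0.0405), and was 0.05 above controls in K alone. STAT3 had 0.53 ± 0.24 (adjusted p = 0.118), and the glucocorticoid targets FKBP5 and TSC22D3 had 0.77 ± 0.48 (adjusted p = 0.232) and 0.08 ± 0.41 (adjusted p = 0.899). GLUL, glutamine synthetase and a listed glucocorticoid target, fell by 2.04 ± 0.46 (adjusted p = 0.0116), with 8643 in Doberman K against 1730 in L and 1529 in R. In K alone the difference was -0.45 and did not pass (adjusted p = 0.178), and another GLUL probe set gave -0.43 (adjusted p = 0.198). PIK3R1, a regulatory subunit of PI3 kinase, fell by 0.94 ± 0.27 (adjusted p = 0.0265). Of 15 genes of the unfolded protein and integrated stress responses 1 rose and 3 fell. DNAJC3, an inhibitor of the stress kinases PERK and PKR, rose by 1.02 ± 0.31 (adjusted p = 0.0317), while its other probe set gave 0.29 (adjusted p = 0.345) and K alone 0.44 (adjusted p = 0.519). HSPA5, the main chaperone of the endoplasmic reticulum, had 2921 in Doberman K against 90.2 in L and 153 in R, and its difference of -3.01 ± 0.85 (adjusted p = 0.0246) did not pass without L and R. Of the listed regulators of these pathways, GADD45A, JUN, JUND, ATF3, SLC30A1, NFE2L2, HMOX1, PTGR2, HPGD, UCK2, TYMP, CD55, SOCS3 and CEBPD had no tested probe set under their symbol and were not analysed here.

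**Figure D4:**
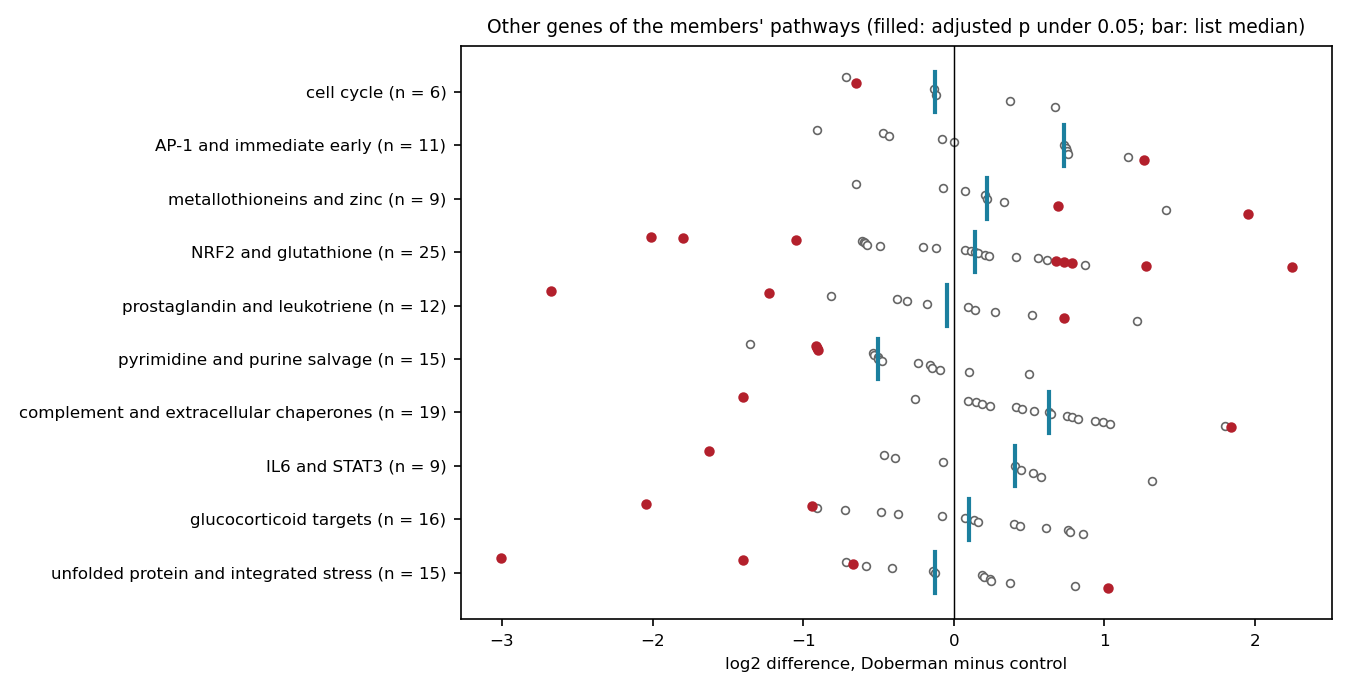
Log2 difference of Dobermans from controls for the genes of 10 of the lists, with 1 point a gene in each list that holds it, filled where the adjusted p is under 0.05, and a bar at the list median. In the NRF2 and glutathione list 5 rises and 3 falls are filled.

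The other comparisons gave the same lists different counts. Dobermans had 17 genes above Boxers (16.8% of all genes) and 30 below (17.4% of all), or 5 and 50 with arrays centred on their medians, and 18 above paced samples (13.6% of all) and 16 below (11.2% of all). In Boxers against controls limma called 0 of 147 in either direction, with 17 at an unadjusted p under 0.05 (8.51% of all genes), where at the adjusted threshold 0.0191% of all genes rose and 0.0382% fell. In paced samples against controls 8 rose and 6 fell, where 5.19% and 4.04% of all genes did, or 6 and 9 after quantile normalization and 1 and 35 with median centring. AKR1B1 fell there by 1.86 ± 0.19 (adjusted p = 0.000267), to 2792 ± 272 (SD, n = 3), and GSS rose by 1.25 (adjusted p = 0.00615), as did MTF2, a chromatin protein of the polycomb group, by 0.88 (adjusted p = 0.0188) and SLC39A8, a zinc importer, by 0.92 (adjusted p = 0.0160). The calls of MTF2 and SLC39A8 were lost in 5 and 3 of the 23 alternatives, both without control P1 or LV02 and with median centring. Boxers had 8163 ± 1742 (SD, n = 4) for AKR1B1, which did not pass against controls (adjusted p = 0.731) and lay 1.52 above paced samples (adjusted p = 0.000589). C2 lay below controls in paced samples by 1.37 (adjusted p = 0.0395), while it lay above them in the Dobermans. LV01, LV02 and LV04 read 27.2, 51.6 and 21.1, under the filter level (108), so the size of the fall depends on the added constant of 16. The call of this fall was lost in 7 of the 23 alternatives, among them those without any 1 control, LV01 or LV04 and with a pseudocount of 64. SGK1, a kinase induced by glucocorticoids, rose by 1.72 in paced samples (adjusted p = 0.0407) and lay 1.80 lower in Dobermans than in paced samples (adjusted p = 0.0217). The call against controls was lost in 11 of the 23 alternatives, among them those without control P1 or any 1 paced sample or Boxer. Control P1 read 61.7, against 442 in P4 and 336.6 in P9.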

How the data were processed

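Heart RNA of 13 samples was measured on 1 array each. The authors deposited linear intensity values, made with MAS5 per the submitters' processing notes, of which the version is not given in the sources used here. The 77 control probe sets were set aside. Values were analysed as log2(signal + 16), and the 14302 probe sets with a mean at or above the 40th percentile (6.95, a signal of 108) were tested. Of the 23836 probe sets, 10549 carried 1 gene symbol, 138 several and 13149 none.

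One mean per group was fitted in limma 3.58.1 (R 4.3.3) with an intensity trend, 9 residual degrees of freedom and Benjamini-Hochberg adjustment over all tested probe sets of a comparison, at 0.05. The fit was tested on simulated data. Nothing beyond the names says that samples are separate animals, so p-values measure the spread between these samples. The number of arrays limits the precision.

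The genes and lists were chosen with earlier results of these data known. Named were all 6 genes, of each pathway list up to 4 genes passing in Dobermans against controls and up to 3 in the other comparisons with controls, a set of regulators, and for each of the 6 genes the 5 most alike by correlation. Alternatives left out each sample or Dobermans L and R, or changed scaling, pseudocount (1, 64), filter, array weights, the GAPDH covariate or the groups fitted. The results of 1 pathway list, which the totals over all lists include, are not reported here. Figures used Python 3.11.15 and matplotlib 3.10.9.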

Additional observations from a re-analysis of the deposited data

How the results depend on the processing

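There were 23 alternatives, 13 of which left out 1 sample. Of the 8 probe sets of the 6 genes, 0 passed for Boxers against controls with any 1 sample left out. There, 1 passed without Dobermans L and R, 3 with array weights and 1 with only the compared groups fitted. For paced samples against controls, 1 passed with any 1 sample left out, 2 without L and R, 0 with a filter at the 70th percentile, which left fewer probe sets, 3 with array weights, 2 with the GAPDH covariate and 3 with only the compared groups. For Boxers against paced samples 0 to 4 passed with 1 sample left out, 7 with median centring and 1 with the 70th percentile filter. Apart from the shares given above, those of all probe sets passing in these fits are not given, so nothing is read from these counts. The median difference of Dobermans from controls over the 8 was 2.38 to 2.84 with 1 sample left out, 2.28 with median centring and 2.40 with a pseudocount of 64. The cause of these shifts was not tested.

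MT2A probe set 1601219_at passed in paced samples against controls in all 22 alternatives that tested it, at -2.53 to -1.51. Among differences that did not pass, JUNB in Boxers against controls ran from -0.092 to 0.44 and CLU in paced samples against controls from -0.31 to 0.73 with 1 sample left out, and the latter was -0.29 with median centring. UPP1 in Boxers against paced samples ran from -0.68 to 0.22, changed sign without LV04 or Boxer 3, and was 0.29 after quantile normalization and 0.36 after median centring.

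Of the 147 pathway genes, leaving out 1 sample gave 9 to 58 passing for Dobermans against controls, 20 to 73 against Boxers, 22 to 65 against paced samples, 0 to 1 for Boxers against controls and 3 to 32 for paced samples against controls. Without L and R these counts were 9, 3, 4 and 41 for Dobermans against controls and Boxers and for Boxers and paced samples against controls. The GAPDH covariate, which goes largely with the Dobermans, gave 2, 1 and 12 for Dobermans against controls, Boxers and paced samples and 26 for paced samples against controls. Fits of only the compared groups, with fewer samples, gave 1, 15, 7 and 32 for the same comparisons. Array weights gave 5 for Boxers and 37 for paced samples against controls, where median centring gave 36, no filter 24 and the 70th percentile filter 4. The shares of all genes passing in these fits are not given beside them, so nothing is read from these counts. Without L and R, 4 of the 22 genes named as passing in Dobermans against controls still passed, and 2 changed sign, SOD2 (0.26) and IL6ST (0.047).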
